A study of Mus musculus with 8 samples.

Results

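Nodal, its antagonists, its receptors and the factors that carry its signal were followed across mouse embryoid bodies after knockdown of CnAβ1 by siRNA. The 9 genes were Nodal, Lefty1, Lefty2, Tdgf1, Cfc1, Foxh1, Smad7, Acvr2b and Furin, chosen by name, and their probes were found through the RefSeq accession that the array gives for each probe. They were read by 11 of the 39429 probes on the array, 3 of them for Tdgf1 and 1 for each other gene. All 11 probes were well above background on all 8 arrays, so that no member was lost to the filter on dim probes.

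The cells were of the pluripotent mouse embryonic stem cell line R1, grown as embryoid bodies (suspended aggregates in which the cells begin to differentiate) for 48 h, towards mesoderm by the title of the series. CnAβ1, a form of the calcineurin catalytic subunit made from the Ppp3cb gene by alternative splicing, was targeted with either of 2 siRNAs, and Control cells were transfected with a control siRNA. The labels state no other change to the cells. Total RNA collected 48 h after transfection was labelled with Cy3 and measured on Agilent arrays of 1 colour. Control and siRNA 1 had 3 arrays each, and siRNA 2 had 2. Separate cultures are not stated for the replicates, and the p-values therefore cover the spread among these arrays alone, which may be technical. Each value below is the log2 processed signal of a probe minus the log2 of the 75th percentile of all processed signals of its array, and a level is compared only with the same probe on other arrays. The small number of arrays in each group limits how precise the values can be.

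Nodal is a secreted ligand of the TGF-β superfamily that sustains the epiblast and induces mesoderm and endoderm at the primitive streak. It is cut from its precursor by proprotein convertases such as Furin, and signals through type I and type II activin receptors together with a coreceptor of the EGF-CFC family, Tdgf1 (Cripto) or Cfc1 (Cryptic). The receptors phosphorylate Smad2 and Smad3, which enter the nucleus with Smad4 and act with DNA-binding partners such as Foxh1 on targets that include Nodal itself and the secreted inhibitors Lefty1 and Lefty2. Smad7 is an inhibitory Smad that blocks the receptors.

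The bases that lie before the start of the ligand gene and of its coreceptor genes are shown because these 3 genes stood lower together in the siRNA 2 arrays. They are the 250 bases before the RefSeq transcript start, written 5′ to 3′ on the strand of the gene in build GRCm38.p6, at chr10:61417722-61417971 on the plus strand for Nodal, chr9:110946159-110946408 on the minus strand for Tdgf1 and chr1:34535398-34535647 on the plus strand for Cfc1. Capitals mark the Smad half-site CAGAC on either strand, and the Foxh1 motif AATNCACA was searched in the same way without overlapping it.
Nodal: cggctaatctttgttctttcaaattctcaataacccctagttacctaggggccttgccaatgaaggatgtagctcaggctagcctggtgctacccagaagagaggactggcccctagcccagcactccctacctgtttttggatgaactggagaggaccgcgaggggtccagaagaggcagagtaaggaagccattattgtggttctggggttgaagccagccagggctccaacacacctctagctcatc
Tdgf1: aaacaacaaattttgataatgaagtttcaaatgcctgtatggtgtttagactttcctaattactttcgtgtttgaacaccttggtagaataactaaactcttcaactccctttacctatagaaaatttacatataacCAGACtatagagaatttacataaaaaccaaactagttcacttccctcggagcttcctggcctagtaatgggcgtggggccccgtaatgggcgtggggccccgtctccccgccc
Cfc1: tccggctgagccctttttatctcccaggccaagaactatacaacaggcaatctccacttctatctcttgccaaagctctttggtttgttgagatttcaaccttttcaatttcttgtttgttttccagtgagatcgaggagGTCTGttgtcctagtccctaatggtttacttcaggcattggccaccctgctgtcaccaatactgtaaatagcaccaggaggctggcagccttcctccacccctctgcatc
The Tdgf1 window held 1 match to CAGAC on the strand of the gene, between 113 and 109 bases before the start. The Cfc1 window held 1 match on the opposite strand, between 110 and 106 bases before the start. The Nodal window held no match to either motif, which says only that these letters are not in this window. A match to CAGAC was present in 42.2% of the 32851 promoter windows of the same length and a match to AATNCACA in 3.18%. Also read were 1 Acvr2b window and 2 Furin windows, with 1, 1 and 2 matches to CAGAC and 0 to AATNCACA. The member windows left out 1 chromosome that the 32851 windows kept. No window is given here for Lefty1, Lefty2, Foxh1 or Smad7. A match describes the letters and not a bound site.

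Of the 3 slides, slide 1 carried replicate 1 of each group, and its arrays stood apart from the rest. On the first principal component, which took 42.3% of the variance, they scored between 32.1 and 34.6 and the other 5 arrays between -26.2 and -13.3. Slide 2 held Control replicate 2 and siRNA 1 replicate 3, and slide 3 held Control replicate 3 with replicate 2 of both siRNAs. The targeted gene, Ppp3cb, was read by 1 probe, with a Control level of 0.63 ± 0.11 (SD, n = 3). Its level was 0.39 ± 0.21 with siRNA 1 (SD, n = 3) and 0.52 ± 0.14 with siRNA 2 (SD, n = 2). The limma adjusted p was 0.9999, and it is not known here whether this probe reads the CnAβ1 variant. Of the defining pluripotency genes, Pou5f1 stood between 4.35 and 4.59 on every array. Other pluripotency and epiblast markers varied more between the arrays, with Nanog between -3.34 and -2.77 and Esrrb between 0.80 and 2.68. Pou5f1 alone therefore does not show that the pluripotent state was the same on all arrays. Mesp1 and Mixl1, markers of the mesoderm that the title names, were not well above background on every array of any group, while the streak genes T and Eomes were measured.

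Across 22422 tested genes, limma's fit with Benjamini-Hochberg adjustment called 0% in each of 4 comparisons: the average of both siRNAs, siRNA 1 and siRNA 2 each against Control, and siRNA 2 against siRNA 1, and it called 0 of the 9 members in each. The members' adjusted p lay between 0.9998 and 1.0000. At an unadjusted p under 0.05, the shares of all genes were 3.59% when both siRNAs were averaged, 3.50% with siRNA 1, 3.35% with siRNA 2 and 3.36% between them. The values of single members therefore describe these arrays, and none is a called change.

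Of the 9 genes, Nodal had the most negative difference from Control with siRNA 2. Its level was 3.73, 3.35 and 3.62 on Control replicates 1, 2 and 3, then 3.39, 3.42 and 3.54 on those of siRNA 1, and 3.16 and 3.17 on the 2 arrays of siRNA 2. Both siRNA 2 arrays lay below every other array, while the siRNA 1 arrays lay within the Control range. The Control mean was 3.57 ± 0.20 (SD, n = 3). The siRNA 1 mean was 3.45 ± 0.08 (SD, n = 3) and the siRNA 2 mean 3.17 ± 0.01 (SD, n = 2). The log2 difference from Control was -0.40 ± 0.13 (SE) for siRNA 2, with a 95% confidence interval from -0.70 to -0.10 and an unadjusted limma p of 0.0158. For siRNA 1 it was -0.11 ± 0.11 (SE), with an interval from -0.38 to 0.15, and the direct comparison of siRNA 2 with siRNA 1 gave -0.29 with an interval from -0.59 to 0.01. In all, 8.19% of genes had both siRNA 2 arrays below all Control arrays. Within slide 1, Nodal stood lower than Control by a log2 difference of -0.34 for siRNA 1 and -0.57 for siRNA 2. On slide 3 the differences were -0.20 and -0.45. On slide 2 the siRNA 1 array stood higher than its Control by 0.20, so the direction for siRNA 1 was not shared by all slides. Without the arrays of slide 1 the difference was 0.00 for siRNA 1, -0.16 for the mean of both and -0.31 for siRNA 2.

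Furin, a convertase that processes Nodal and many other precursors, stood lower on every siRNA array than on every Control array. The Control arrays stood at -0.86, -0.51 and -0.85, the siRNA 1 arrays at -1.28, -1.14 and -1.004, and the siRNA 2 arrays at -1.04 and -1.10. The gap between the groups was narrow, from -1.004 to -0.86, against a Control range of 0.35. The mean of both siRNAs differed from Control by -0.36 ± 0.11 (SE), with a 95% confidence interval from -0.63 to -0.10 and an unadjusted limma p of 0.0142. The difference was -0.40 for siRNA 1 and -0.33 for siRNA 2, and the siRNAs differed from each other by 0.07 with an interval from -0.26 to 0.40. Because its groups did not overlap, Furin was necessarily lower in 5 of 5 pairs within slides, by differences between -0.49 and -0.17. These pairs reuse the Control arrays of slides 1 and 3. Without Control replicate 2, the highest Control array, the difference was -0.25, and without slide 1 it was -0.41.

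**Figure D1:**
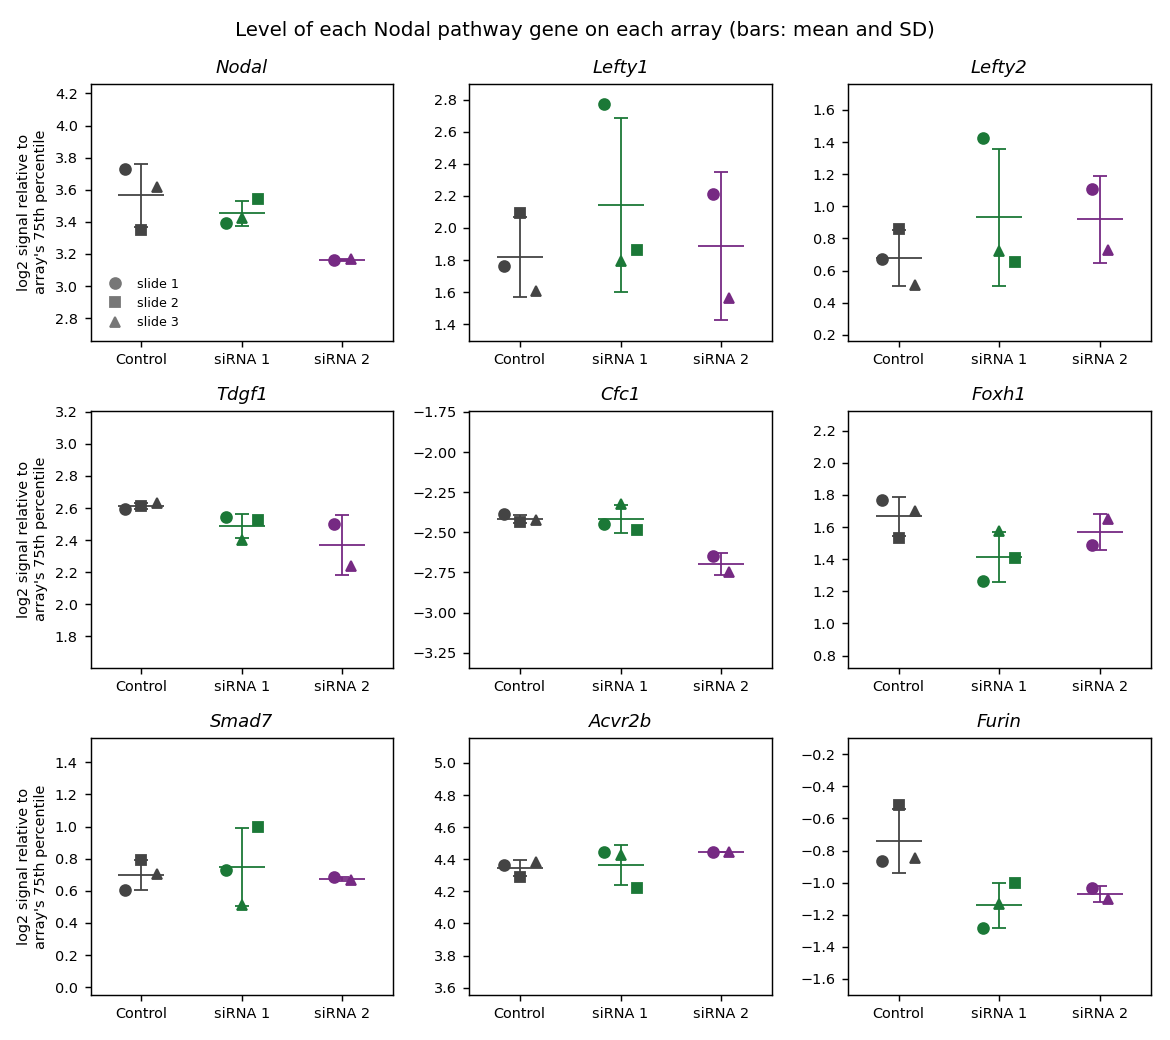
Log2 signal of each of the 9 genes relative to the array's 75th percentile, by group, with 1 point per array, the slide shown by the shape, and bars for the mean and SD; each panel spans the same width of scale. Nodal lies lowest on the siRNA 2 arrays, Furin and Tdgf1 lie lower on all 5 siRNA arrays than on the 3 Control arrays, and the Lefty genes are highest on replicate 1 of siRNA 1.

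Of the coreceptors, Tdgf1 was lower on all 5 siRNA arrays than on all 3 Control arrays by its brightest probe. That probe stood at 2.60, 2.61 and 2.63 in Control, 2.54, 2.40 and 2.52 in siRNA 1 and 2.50 and 2.24 in siRNA 2. The Control arrays were close together, with an SD of 0.02, and siRNA 2 replicate 2 stood lowest. The mean of both siRNAs differed by -0.18 ± 0.09 (SE), with a 95% confidence interval from -0.38 to 0.02. Its second probe gave -0.25 ± 0.08 (SE), and on that probe siRNA 1 replicate 3, at 1.01, lay above Control replicate 1, at 0.99. The third and dimmest probe varied far more, with Control arrays between -0.39 and 0.51, and gave -0.19 ± 0.28 (SE), so that it could not show a difference of this size. Within slides the brightest probe was lower in 5 of 5 pairs, by between -0.39 and -0.05, which follows from groups that do not overlap. The siRNA 2 difference of -0.24 was -0.11 without replicate 2 of siRNA 2 and -0.38 without slide 1.

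Cfc1, the other EGF-CFC coreceptor, was measured at a low signal, between 126 and 192 processed intensity units. It stood at -2.39, -2.44 and -2.42 in Control and at -2.45, -2.32 and -2.48 in siRNA 1, which covers the same range. The siRNA 2 arrays lay apart from these, at -2.65 and -2.74. The difference from Control was -0.28 ± 0.09 (SE) for siRNA 2, with a 95% confidence interval from -0.49 to -0.07, and 0.00 ± 0.08 (SE) for siRNA 1. The siRNAs differed from each other by -0.28, with an interval from -0.49 to -0.07 and an unadjusted limma p of 0.0157. With normexp background correction and quantile normalization together the siRNA 2 difference was -0.13, and without slide 1 it was -0.31.

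Acvr2b, a type II activin receptor, had the narrowest range of the members, 0.22 over the 8 arrays. Its levels were 4.36, 4.29 and 4.38 in Control, 4.44, 4.43 and 4.22 in siRNA 1, and 4.44 on both siRNA 2 arrays. The difference from Control was 0.10 for siRNA 2, with a 95% confidence interval from -0.13 to 0.33, and 0.02 for siRNA 1, with an interval from -0.19 to 0.23. The siRNA 2 arrays lay above all Control arrays, as did those of 8.75% of all genes.

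The antagonists Lefty1 and Lefty2 had the widest ranges of the 9 genes by the probes fitted, 1.21 and 0.91 over the 8 arrays, and the spread ran between replicates rather than between groups. Lefty1 stood at 1.76, 2.09 and 1.61 in Control, 2.77, 1.80 and 1.86 in siRNA 1, and 2.21 and 1.56 in siRNA 2. Lefty2 stood at 0.67, 0.86 and 0.51 in Control, 1.42, 0.72 and 0.65 in siRNA 1, and 1.11 and 0.73 in siRNA 2. Replicate 1 of siRNA 1 was the highest array for both genes and replicate 1 of siRNA 2 the next, and the groups overlapped for both. The differences of the mean of both siRNAs were 0.20 ± 0.27 (SE) for Lefty1, with a 95% confidence interval from -0.45 to 0.84, and 0.25 ± 0.20 (SE) for Lefty2, with an interval from -0.23 to 0.73. For siRNA 1 the differences of 0.32 and 0.25 became 0.01 and 0.01 without its replicate 1. Without the 3 arrays of slide 1, the differences of the mean of both siRNAs were -0.15 for Lefty1 and 0.02 for Lefty2. Lefty1 and Lefty2 are close paralogs, and as probe sequences were not used here, it is not known how far each probe reads the other transcript.

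Smad7, the inhibitory Smad, stood at 0.60, 0.79 and 0.70 in Control, 0.73, 0.51 and 1.00 in siRNA 1, and 0.68 and 0.67 in siRNA 2. The siRNA 1 arrays spanned a wider range than Control on both sides, and the siRNA 2 arrays lay inside the Control range. The mean of both siRNAs differed by 0.01 ± 0.12 (SE), with a 95% confidence interval from -0.27 to 0.29.

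Foxh1, the forkhead partner of Smad2 and Smad3, stood at 1.77, 1.53 and 1.70 in Control, 1.27, 1.57 and 1.41 in siRNA 1, and 1.49 and 1.65 in siRNA 2. The lowest array was replicate 1 of siRNA 1, and the groups overlapped. The difference was -0.25 ± 0.11 (SE) for siRNA 1, with a 95% confidence interval from -0.52 to 0.02, and -0.10 ± 0.13 (SE) for siRNA 2, with an interval from -0.39 to 0.20. The direct comparison gave 0.16, with an interval from -0.14 to 0.45. Foxh1 was lower than Control in 5 of 5 pairs within slides, by -0.50 and -0.28 on slide 1 and by between -0.13 and -0.05 on the others. The pairs reuse Control arrays, and the share of all genes lower in 5 of 5 pairs is not given. Without slide 1 the difference of both siRNAs was -0.05.

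**Figure D2:**
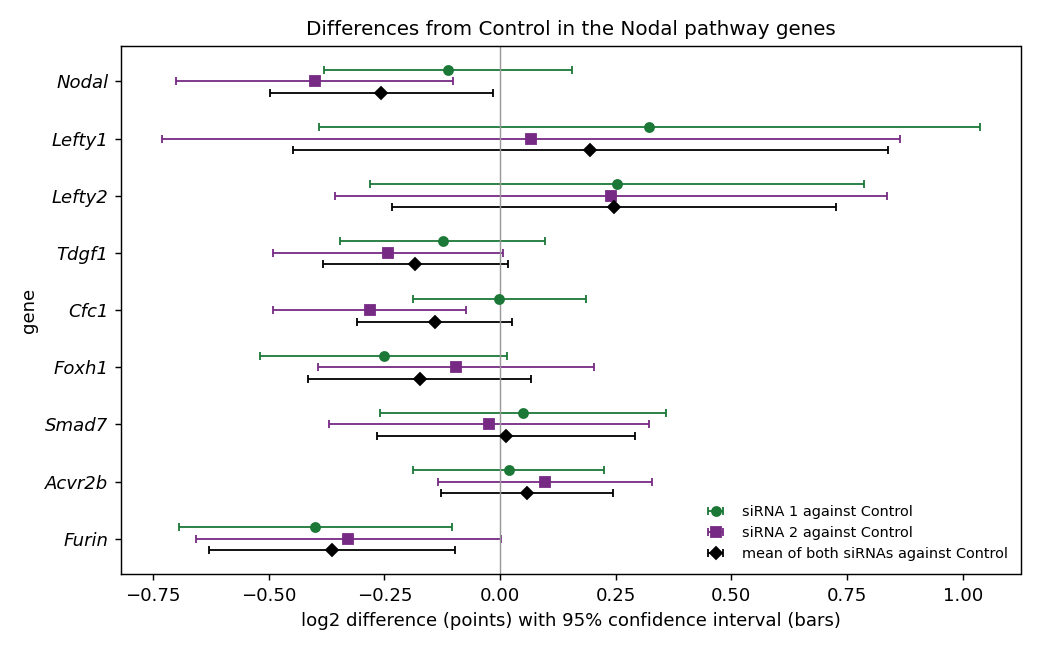
Fitted log2 difference from Control for each gene, as points, with 95% confidence intervals as bars, for siRNA 1, siRNA 2 and their mean. The intervals of Furin for siRNA 1 and the mean, of Nodal for siRNA 2 and the mean, and of Cfc1 for siRNA 2 lie below 0, and the intervals of the Lefty genes are the widest.

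Counted over the 9 genes, 5 stood below Control and 4 above when both siRNAs were averaged, where 47.1% of all genes stood below. The median log2 difference was -0.14 against 0.01 over all genes, while that of siRNA 1 was 0.00 against 0.02 and that of siRNA 2 was -0.10 against 0.00. For siRNA 1 the count below was 5, against 41.8% of all genes, and for siRNA 2 it was 6, against 50.2%. Against siRNA 1, siRNA 2 stood lower for 6 of the genes, where 57.6% of all genes did. These counts of direction lie near the shares over all genes.

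Tdgf1 and Furin, 2 of 9, had all 5 siRNA arrays below all Control arrays, which 1.01% of all genes showed, and 0 had them all above, which 2.43% showed. Without Control replicate 2 the count below was 4, under normexp with quantile normalization it was 1, and without siRNA 1 replicate 3 the count above was 1. The shares of all genes under these and the following alternatives are not given. Leaving out an array can end an overlap for any gene but never create one. Without either of its arrays or without slide 1, siRNA 2 keeps 1 array. Changes in these counts are therefore not results about the members. In comparisons that share the Control arrays, siRNA 1 had the same 2 genes below, against 2.50% of all genes, and 0 above, against 5.40%. Those counts were 4 and 1 without Control replicate 2, 4 and 0 without siRNA 1 replicate 2, 2 and 1 without siRNA 1 replicate 3, and 1 and 0 under normexp with quantile normalization. The siRNA 2 arrays lay below all Control arrays for Nodal, Tdgf1, Cfc1 and Furin, 4 of 9 against 8.19%, and above them for Acvr2b, 1 of 9 against 8.75%. The count above was 3 without siRNA 2 replicate 2, 2 without Control replicate 2 and 0 under normexp with quantile normalization. Both siRNA 2 arrays lay below all siRNA 1 arrays for Nodal and Cfc1, against 11.9% of all genes, and above them for Acvr2b, against 7.27%, where the highest siRNA 1 array and the siRNA 2 arrays were all at 4.44. The count below was 4 without siRNA 1 replicate 2, without siRNA 2 replicate 1 or without slide 1, and 1 under normexp with quantile normalization. The count above was 0 under quantile normalization, with or without normexp, and in the deposited value table, 2 without any 1 array of siRNA 1 or without siRNA 2 replicate 1, and 3 without slide 1.

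At an unadjusted p under 0.05, the lower members by the brightest probe of each gene were Nodal and Furin when both siRNAs were averaged, against 1.32% of all genes. For siRNA 1 it was Furin, against 0.901%, for siRNA 2 they were Nodal and Cfc1, against 1.97%, and between the siRNAs it was Cfc1, against 2.55%. No member was higher at that level, where the shares of all genes were 2.27%, 2.60%, 1.38% and 0.816% in the same order. With every probe fitted, the second Tdgf1 probe had an unadjusted limma p of 0.0201 for the mean and 0.0128 for siRNA 2. The third had 0.520 and 0.313.

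**Figure D3:**
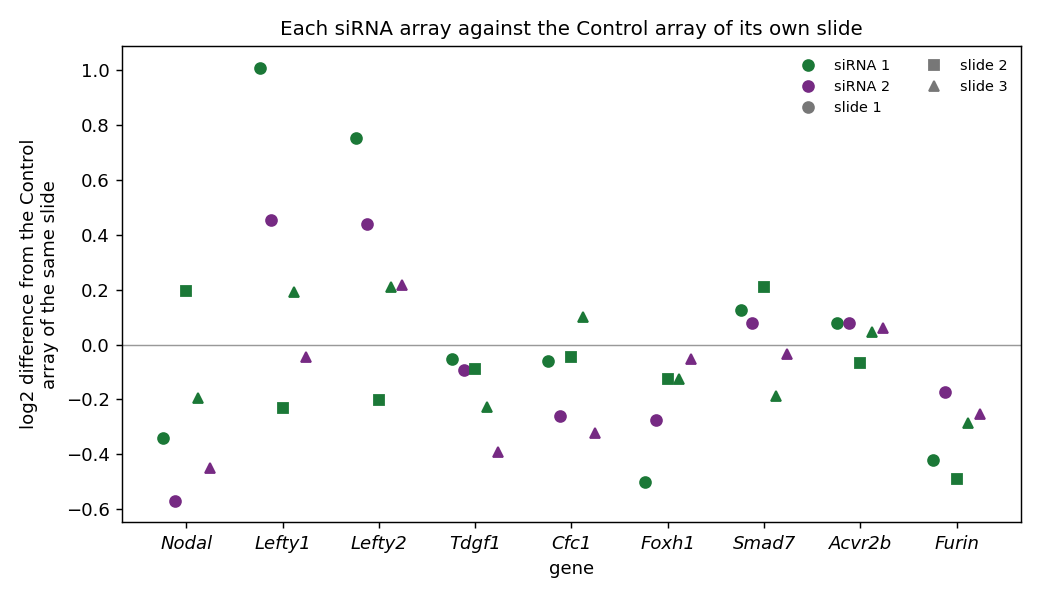
Log2 difference of each siRNA array from the Control array on its own slide, for each gene, with the siRNA shown by colour and the slide by shape. Furin, Tdgf1 and Foxh1 lie below 0 in 5 of 5 pairs, which for Furin and Tdgf1 follows from groups that do not overlap. The pairs reuse Control arrays, and the share of all genes lower in 5 of 5 pairs is not given. The Lefty genes reach 1.01 and 0.75 on slide 1 but lie at -0.23 and -0.20 on slide 2.

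The rest of the pathway was taken from lists of ligands, receptors, antagonists, transducers and targets, 45 of whose 50 genes were tested. Acvr1c (a type I receptor), the antagonists Cer1, Inha and Bambi, and the target Mixl1 were not well above background on every array of any group. Of the 45, 20 stood higher and 25 lower for the mean of both siRNAs, with a median of -0.03, and 0 passed the threshold. The median was -0.01 for siRNA 1 and -0.03 for siRNA 2.

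The 7 ligand and processing genes held no further member with an unadjusted p under 0.05. Gdf3, a ligand that also signals through Tdgf1, differed by 0.07 for siRNA 1 and by -0.15 for siRNA 2, and Gdf1, a partner of Nodal, by -0.01 and 0.05. Inhbb, an activin subunit gene, differed by -0.35 and -0.33. Pcsk6, the other Nodal convertase listed, differed by 0.16 and 0.00, unlike Furin. Among the 7 tested receptors, Acvr1b, the main type I receptor for Nodal, differed by 0.07 and 0.00, and Acvr2a by -0.11 and 0.01.

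Of the 7 tested antagonists, 4 stood higher and 3 lower for the mean of both siRNAs, 0 of them with an unadjusted p under 0.05. Fst, the secreted activin inhibitor follistatin, varied most, between 1.41 and 3.07 over the arrays. It was low on Control replicate 2 and on replicate 1 of both siRNAs, at 1.47, 1.41 and 1.43. Among the 15 transducers and corepressors the median was 0.01, and Smad2, Smad3 and Smad4, which carry the signal, differed by 0.04, -0.01 and 0.01. Pmepa1, a target that feeds back on the receptors, was the transducer with an unadjusted p under 0.05, as described with the targets.

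Of 15 tested Smad2/3 targets, 9 stood lower and 6 higher for the mean of both siRNAs, where 47.1% of all genes stood lower. Their median was -0.14, and 5 of them were lower with an unadjusted p under 0.05, against 1.32% of all genes. These 5 were Nodal itself, Eomes, Gsc, Foxa2 and Pmepa1, and 0 were called after adjustment. The count was 2 without Control replicate 3, and 3 without replicate 1 or replicate 2 of siRNA 1, without either array of siRNA 2, without slide 1 or with slide as a block. The number of all genes at that level, in either direction, moved too. It was 804 of 22422 in the main fit and 452 without Control replicate 3. It was 725 without replicate 1 or replicate 2 of siRNA 1, and 986 with slide as a block. For siRNA 2 the same 5 genes had an unadjusted p under 0.05, against 1.97% of all genes that were lower, and the median was -0.26. That count was 3 without either of the siRNA 2 arrays and 5 with slide as a block. For siRNA 1 it was 0 genes, against 0.901% of all genes, and the median was -0.08. Lefty1 and Lefty2 are in the same list and stood on the other side, at 0.20 and 0.25.

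Eomes, a T-box factor of the streak, stood at 1.67, 1.27 and 1.57 in Control and at 0.64, 1.23 and 1.31 in siRNA 1. On the siRNA 2 arrays it stood at 0.68 and 0.75, below all Control arrays. Its siRNA 2 difference was -0.79 ± 0.22 (SE), and that of its other probe was -1.06. Gsc, the organiser gene goosecoid, differed by -1.20 for siRNA 2 and -0.37 for siRNA 1, and was lowest on replicate 1 of siRNA 2, at -4.03.

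Foxa2, an endoderm factor, differed by -1.53 for siRNA 2 and -0.33 for siRNA 1, and its other probe by -1.84 for siRNA 2. The direct comparison of the siRNAs for Foxa2 gave -1.20, with an unadjusted limma p of 0.0125. Pmepa1 differed by -0.32 for siRNA 2 and -0.08 for siRNA 1. The remaining 10 targets included T at -1.001 and Sox17 at -1.03 for siRNA 2, neither with an unadjusted p under 0.05. Otx2, a factor of the epiblast and anterior endoderm, differed by 0.00 for siRNA 2, and Skil, a corepressor, by 0.14.

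**Figure D4:**
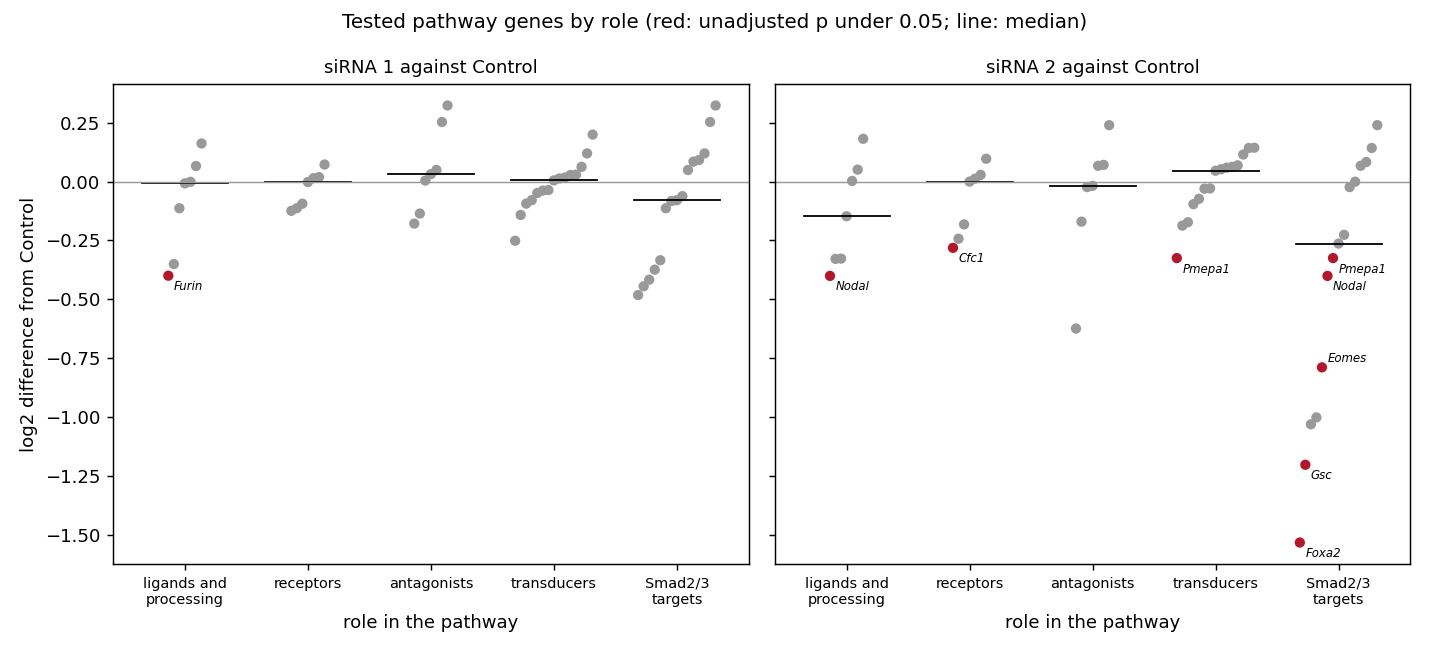
Log2 difference from Control of every tested pathway gene, grouped by role, for siRNA 1 and siRNA 2, with genes of unadjusted p under 0.05 in red and the median of each group as a line. The Smad2/3 targets have the lowest median with siRNA 2, -0.26, Furin is the only red gene with siRNA 1, and the antagonists have no red point with either siRNA; genes in 2 lists are shown in both.

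Endoderm markers also stood lower in the siRNA 2 arrays. Of 13 tested markers of primitive and visceral endoderm, 12 were well above background on all 8 arrays. All of these 12 stood lower with siRNA 2, where 50.2% of all genes did, with a median of -1.14 against 0.00. With siRNA 1, 10 of the 12 stood lower, where 41.8% of all genes did, with a median of -0.28 against 0.02. Afp, the remaining marker of the 13, was well above background only on the 6 arrays of Control and siRNA 1, through which it passed the filter. A further listed marker, Apoa1, was not tested because it was not well above background. The log2 of the summed level of the 13 tested markers ranged from 2.44 to 3.48 in Control, from 2.55 to 3.28 in siRNA 1 and from 1.83 to 1.89 in siRNA 2. That sum includes Afp, which passed the filter only through Control and siRNA 1, and the sum without Afp is not given. The 6 tested streak and mesoderm markers share T and Eomes with the target list. Of these 6, 5 stood lower with siRNA 2, where 50.2% of all genes did, with a median of -0.89. With siRNA 1, 4 stood lower, where 41.8% of all genes did, with a median of -0.46. Their summed levels, to which Kdr gave the most on each array, were from 3.14 to 3.36 in Control, 2.70 to 3.28 in siRNA 1 and 2.74 to 2.79 in siRNA 2. Foxa2 and Sox17 are in the endoderm list as well. In such bulk samples fewer cells of a type and less RNA per cell cannot be told apart, and the part of either cell type in the values of Nodal and the targets was not tested. The 5 tested markers of feeder fibroblasts had summed levels from 1.88 to 2.00 in Control, 1.73 to 2.04 in siRNA 1 and 1.96 to 2.00 in siRNA 2. Of these 5, 4 were well above background on all 8 arrays. With each siRNA 3 of these 4 stood lower, where 41.8% of all genes did with siRNA 1 and 50.2% with siRNA 2. The number of them with an unadjusted p under 0.05 was 0. Fap, which is in the sums, was well above background on the Control arrays alone, through which it passed the filter. It stood at -5.69 to -5.43 there against -7.81 to -6.39 on the siRNA arrays.

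The members did not follow 1 pattern over the 8 arrays. Lefty1 and Lefty2 varied together, with a Pearson correlation of 0.95 over the 8 arrays, while Lefty1 correlated with Nodal at -0.26 and with Foxh1 at -0.83. The arrays share groups, slides and scaling, so these are descriptions of 8 points. The genes most like Nodal were Rab43 (r = 0.98, rho = 0.93), Wnt3 (r = 0.97, rho = 0.98) and Foxb1 (r = 0.97, rho = 0.95), among all tested genes with a symbol over the 8 arrays. Wnt3 is a ligand of the early streak. Among the genes most like Lefty1 were Mtss1 (r = 0.99, rho = 0.95) and Mok (r = 0.99, rho = 1.00). For Lefty2 they were Hic2 (r = 0.99, rho = 0.98), Sik2 (r = 0.99, rho = 0.90) and Vpreb1 (r = 0.99, rho = 0.86). For the others the nearest gene was Tmem47 for Tdgf1 (r = 0.97), Gria3 for Cfc1 (r = 0.93), Mboat7 for Foxh1 (r = 0.98), Nsrp1 for Smad7 (r = 0.94), Dgkh for Acvr2b (r = 0.95) and Dhrs13 for Furin (r = 0.96).

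Of the 6 tested streak and mesoderm markers, 4 had a high correlation with Nodal over the same 8 arrays. The share of all genes with correlations as high as those below is not given. These counts are therefore descriptions and not results about the markers. Nodal correlated with Evx1 at 0.92, with T at 0.89, with Fgf8 at 0.89 and with Eomes at 0.86, but with Kdr at 0.07 and with Tbx6 at -0.05. Its correlation with the target Gsc was 0.87. Of the 8 tested pluripotency and epiblast markers, Lefty1 correlated with Zfp42 at 0.92, with Sox2 at 0.90, with Esrrb at 0.86 and with Klf4 at 0.84. With the other 4 its correlation was 0.11 for Pou5f1, 0.06 for Nanog, 0.05 for Fgf5 and -0.61 for Utf1. Esrrb stood at 0.80, 2.08 and 0.98 in Control, 2.68, 1.66 and 1.66 in siRNA 1, and 2.03 and 1.52 in siRNA 2, so that its 3 highest arrays were the 3 highest for both Lefty genes. Esrrb and Gsc were singled out after their values were seen.

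**Figure D5:**
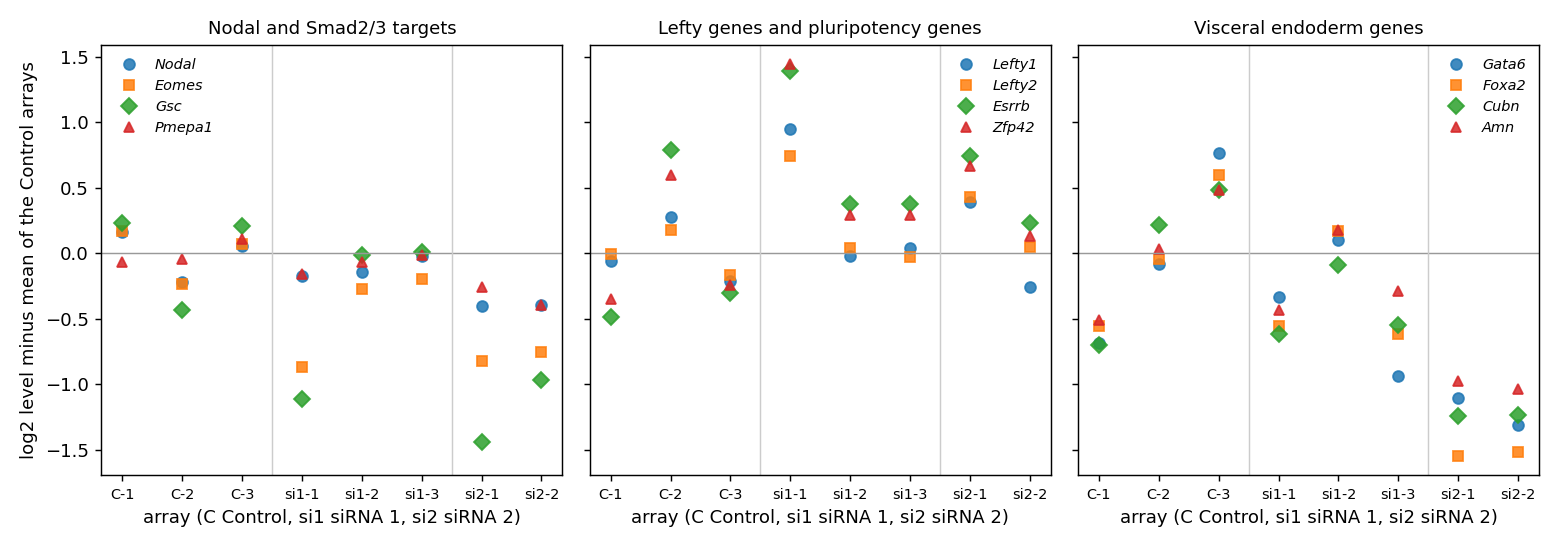
Log2 level of named genes on each of the 8 arrays, minus the mean of the Control arrays, with 1 marker shape per gene and vertical lines between the groups. Nodal, Gsc and Pmepa1 are lowest on a siRNA 2 array and Eomes on replicate 1 of siRNA 1, the Lefty genes are highest with Esrrb and Zfp42 on replicate 1 of siRNA 1, and the visceral endoderm genes are lowest on the siRNA 2 arrays.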

How the data were processed

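Total RNA on 8 Agilent 1-colour arrays was read from scanner files. Per the file headers, the authors used Agilent Feature Extraction 10.7.3.1, and the deposited intensity is the processed, background-corrected signal of each spot, with no scaling between arrays. The deposited value table holds log2 values that follow log2 processed signal centred per probe (r above 0.99 across probes), except that its columns for Control replicates 2 and 3 each follow the other's scanner file. Both belong to Control. RMA appears in the submitters' processing notes without a stated role. Control and outlier spots were left out, spots of a probe were averaged, and 26424 of 39429 probes were named through RefSeq accessions (GRCm38.p6). The array design used mm9, so only promoter coordinates are given. The brightest probe stood for a gene, and a gene was tested if all arrays of some group had it well above background (22422 genes). limma 3.58.1 in R 4.3.3 fitted 3 groups (lmFit, eBayes), with Benjamini-Hochberg adjustment and a threshold of 0.05, and was tested on simulated data. Python 3.11.15 with pandas 2.3.3 read the files. Named genes were the members, listed genes with unadjusted p under 0.05 or the largest differences, and the genes most correlated with each member. Some genes are not reported here and were left out of the lists and their counts. Members and lists were chosen with earlier results of these data known. Alternatives were quantile normalization, normexp (offset of 50, on the median spot intensity) followed by quantile normalization, the value table, other filters, every probe, only the groups compared, replicate number or slide as a block, array weights and leaving out each array. Leaving out slide 1 and counting non-overlapping groups under the alternatives were added after seeing the data.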

Additional observations from a re-analysis of the deposited data

Results flagged for a closer look

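Zfyve9, which encodes a protein that presents Smad2 and Smad3 to the receptor, was above the Control mean on all 3 siRNA 1 arrays (mean log2 difference 0.20) and below it on both siRNA 2 arrays (-0.07). The siRNA 2 arrays, both at -2.49, lay above Control replicates 1 and 2 (-2.57 and -2.52) and below Control replicate 3 (-2.17). The direction for siRNA 2 thus rested on Control replicate 3, which also lay above siRNA 1 replicates 1 and 3 (-2.29 and -2.22). The difference between siRNA 2 and siRNA 1 was -0.27, with an unadjusted limma p of 0.0776 and an adjusted p of 1.00. Groups of 2 or 3 arrays are too small for a check on single outlying arrays.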

How the results depend on the processing

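Of 675 values of the members under the alternatives, 634 kept their sign, 41 took the other sign and 0 passed limma's adjusted threshold. Averaged over both siRNAs, Nodal, Tdgf1, Cfc1, Foxh1 and Furin stayed below Control in all 18 alternatives. Array weights called 24 genes for the mean of both siRNAs, none a member, the fit on the groups compared alone called 1 gene between the siRNAs, and leaving out 1 array called 0 to 1 for siRNA 2. The Smad2/3 targets lower at an unadjusted p, 5 for the mean, numbered 2 with the replicate block, 3 with slide as a block, 3 without slide 1, 3 with no filter on dim probes and 2 to 5 with 1 array left out, and for siRNA 2, also 5, they numbered 3 to 6 with 1 array left out. For the mean, all genes at that level in either direction numbered 804 of 22422 in the main fit. They numbered 700 with the replicate block, 986 with slide as a block and 452 to 1352 with 1 Control array left out. By the scanner files' numbers, which the replicate block used, same-numbered arrays did not deviate together in every pair (correlations from -0.04 to 0.70). The value table exchanges Control replicates 2 and 3, and by its numbers the same-numbered arrays are those that share a slide. Which numbering is right is not known, and so it is not known whether the replicate numbers pair the samples. Of the 7 pairs of arrays of different groups on the same slide, those on slides 1 and 3 deviated together (0.33 to 0.70). The slide 2 pair did not (0.04). The 2 arrays of siRNA 2 mirror each other around their mean, so these pairs are not independent. The printed errors, intervals and p come from the fit without slide. With slide as a block no adjusted call changed, and the differences were -0.27 for Nodal, -0.18 for Tdgf1, -0.15 for Cfc1, -0.19 for Foxh1 and -0.32 for Furin averaged over both siRNAs, and -0.43, -0.23, -0.30, -0.13 and -0.24 for siRNA 2; the unadjusted limma p of Nodal for the mean became 0.0536. With the replicate block the siRNA 2 differences of Lefty1 and Smad7 were -0.056 and 0.040, and with slide as a block Smad7 stood at 0.063 for siRNA 2 and 0.013 between the siRNAs. Without slide 1, Lefty1 turned to -0.15 when both siRNAs were averaged, -0.020 for siRNA 1 and -0.29 for siRNA 2, Smad7 to -0.034 for the mean, Cfc1 to 0.027 and Acvr2b to -0.011 for siRNA 1, Foxh1 to 0.033 for siRNA 2, and Lefty2 to 0.042 and Furin to -0.034 between the siRNAs. Under normexp with quantile normalization, Smad7 turned to -0.034 for the mean and -0.0076 for siRNA 1, and Cfc1 to 0.024 for siRNA 1. With array weights, Smad7 turned to -0.0155 for the mean and -0.0064 for siRNA 1, Cfc1 to 0.033 and Acvr2b to -0.0099 for siRNA 1, and Lefty2 to 0.14 between the siRNAs. Acvr2b turned to -0.0083 for siRNA 1 under quantile normalization. With 1 array left out, Smad7 ranged from -0.050 to 0.072 averaged over both, -0.077 to 0.17 for siRNA 1, -0.071 to 0.0225 for siRNA 2 and -0.19 to 0.053 between the siRNAs. Cfc1 ranged from -0.049 to 0.031 and Acvr2b from -0.020 to 0.090 for siRNA 1. Lefty1 ranged from -0.26 to 0.39 for siRNA 2 and from -0.58 to 0.070 between the siRNAs, where Lefty2 ranged from -0.20 to 0.23, Tdgf1 from -0.25 to 0.015 and Furin from 0.00 to 0.14. The cause of these turns was not tested. All 9 members were well above background, with Cfc1 the dimmest.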
